A study of Mus musculus with 2 samples.

Results

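The genes described here are the secreted Wnt ligands of the mouse, the receptors that read them and the proteins that raise, block or carry out the signal. They number 53 of the 43346 Ensembl genes in the deposited tables and were chosen by gene symbol alone, with no measured value in the rule. They comprise 19 Wnt ligands, 10 Frizzled receptors, the 2 Lrp co-receptors, 4 R-spondins, 3 Lgr receptors, 10 secreted inhibitors of the Sfrp, Dkk and Wif families, the feedback gene Axin2 and the 4 Tcf/Lef transcription factors. Total RNA was sequenced from the hindbrain of B6NCrl mouse embryos at day 13.5, male and female pooled. There were 2 libraries, labelled biological replicates 1 and 2, and each took 10 ng of RNA above 200 nt, with ERCC spike-in RNAs added. They form 1 group with no treatment, mutation or control group named in the labels, so every comparison below is between genes or between the 2 libraries. The libraries carry different biosample labels and the same donor label, and the number of embryos in a pool is not given in the sources used here.

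Replicate 1 held 33080194 estimated counts and replicate 2 held 38756411. Levels are given as deposited TPM, a share of the library's transcripts that takes gene length into account, as the value in each library and as the mean ± SD over the 2 libraries (n = 2). Detection meant that neither library fell below 1 TPM. The libraries were compared gene by gene with a two-sided exact binomial test of the counts, adjusted by Benjamini-Hochberg over 19687 genes, and a ratio is replicate 2 over replicate 1 on the log2 scale of TMM-scaled counts. That test sets the 2 libraries against counting error only, so its p-values describe these libraries, whose spread may in part be technical. The tissue label was checked on marker genes, for hindbrain against forebrain only. Of 9 hindbrain markers, mainly Hox genes, 8 were detected, with a summed TPM of 125 and 138, whereas none of 8 forebrain markers was detected, with a summed TPM of 2.67 and 3.08. Markers of tissue outside the brain wall were present too. Meningeal mesenchyme markers summed to 749 and 580 TPM, cartilage markers to 69.6 and 49.0, and skeletal muscle markers to 52.3 and 64.5.

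Wnt proteins are secreted lipid-modified ligands that bind Frizzled receptors. With the co-receptors Lrp5 or Lrp6, this stabilises beta-catenin, which enters the nucleus and acts with Tcf/Lef factors on target genes such as Axin2 and Lef1. Other ligand and receptor combinations act on cell polarity and movement without beta-catenin. R-spondins bind Lgr receptors and keep Frizzled proteins at the cell surface, Sfrp and Wif1 proteins bind the ligands, and Dkk1 blocks the Lrp co-receptors. In the embryonic hindbrain, Wnt1 and Wnt3a are known from the dorsal midline and Wnt1 from the border with the midbrain, where it is needed for the cerebellum and midbrain to form.

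Promoter sequences are shown because Tcf/Lef factors act at the DNA word CTTTGA, the core of their binding motif, and because Axin2 and Lef1 are the members best known as targets of the pathway themselves. RefSeq windows on GRCm38.p6, the 250 bases before an annotated start, were available for 36 of the 53 genes, in 44 windows. The word was searched on both strands, so that TCAAAG is the same word read from the other strand, and it was present in 6 of the 44 windows, or 13.6%, beside 13.8% of all 32851 windows in the table. The longer word CTTTGAT, which contains it, was in 2 of the 44 windows (4.55%, beside 3.21% of all windows). The share of member windows with either word was thus close to the share among all promoters, and a match here is a description of letters, not a binding site. The sites in the 6 windows are shown with up to 12 flanking bases, 5′ to 3′ along the gene's strand, with the word in capitals. The Wnt5b and Wnt11 sites hold the longer word, and both Dkk1 sites and the Frzb site overlap an exon of GENCODE M21.
Wnt5b (chr6:119449440-119449469, minus strand): gagtaagtctctCTTTGAtctgctccctgt
Wnt11 (chr7:98835050-98835079, plus strand): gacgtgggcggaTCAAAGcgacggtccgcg
Fzd1 (chr5:4758441-4758466, minus strand): cgcagcacTCAAAGtagcagtctgtg
Dkk1, farther from the start (chr19:30549653-30549682, minus strand): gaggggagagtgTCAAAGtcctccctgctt
Dkk1, nearer to the start (chr19:30549596-30549625, minus strand): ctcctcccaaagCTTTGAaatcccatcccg
Frzb (chr2:80447474-80447503, minus strand): tcccctgaaaacTCAAAGccttctcggaag
Lef1, farther from the internal start (chr3:131156102-131156131, plus strand): taaaatacatggTCAAAGgaaaataggtat
Lef1, nearer to the internal start (chr3:131156162-131156191, plus strand): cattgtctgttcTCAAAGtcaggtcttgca

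The window of Axin2 and that of the internal Lef1 start, both clear of annotated exons, differed in base composition. GC content was 69.2% in the Axin2 window, which holds no CTTTGA, and 44.8% in the internal Lef1 window, which holds 2. The table gives 4 RefSeq starts for Lef1, and the window printed here, that of the start farthest downstream, was the only one of them to hold the word. The other Lef1 windows were at 66.4%, 66.4% and 50.8% GC, so the contrast with Axin2 depended on the window chosen. The median over the member windows was 66.6% GC, with a ratio of observed to expected CpG of 0.753, beside 52.4% and 0.373 over all windows. That ratio was 0.755 in windows of detected members and 0.686 in windows of members that were not detected.
Axin2 (chr11:108920099-108920348, plus strand): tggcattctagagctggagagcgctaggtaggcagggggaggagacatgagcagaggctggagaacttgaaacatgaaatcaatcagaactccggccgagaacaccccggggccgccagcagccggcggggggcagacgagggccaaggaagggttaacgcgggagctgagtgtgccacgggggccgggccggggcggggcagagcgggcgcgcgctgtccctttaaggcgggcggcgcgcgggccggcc
Lef1, internal start (chr3:131156044-131156293, plus strand): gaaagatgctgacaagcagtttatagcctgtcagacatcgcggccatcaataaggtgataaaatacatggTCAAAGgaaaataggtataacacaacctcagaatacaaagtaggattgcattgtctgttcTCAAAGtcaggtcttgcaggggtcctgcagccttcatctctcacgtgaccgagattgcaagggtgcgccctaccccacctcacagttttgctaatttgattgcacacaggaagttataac

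Of the 53 members, 38 were detected (71.7%), where the share was 62.2% among protein-coding genes and 35.4% among all Ensembl genes. Most of them were transcripts of low or moderate level. The mean TPM was 20 or more in 7 members, from 5 to under 20 in 14, and under 5 in 17 of the detected members, and no member exceeded 100 TPM. The median over the 53 members was 3.25 TPM, below the median of 5.07 over protein-coding genes. Together they summed to 418 TPM in replicate 1 and 428 in replicate 2. In RNA from whole tissue, fewer cells of a type and less RNA per cell cannot be told apart, so a low value may belong to a gene used strongly by few cells.

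**Figure D1:**
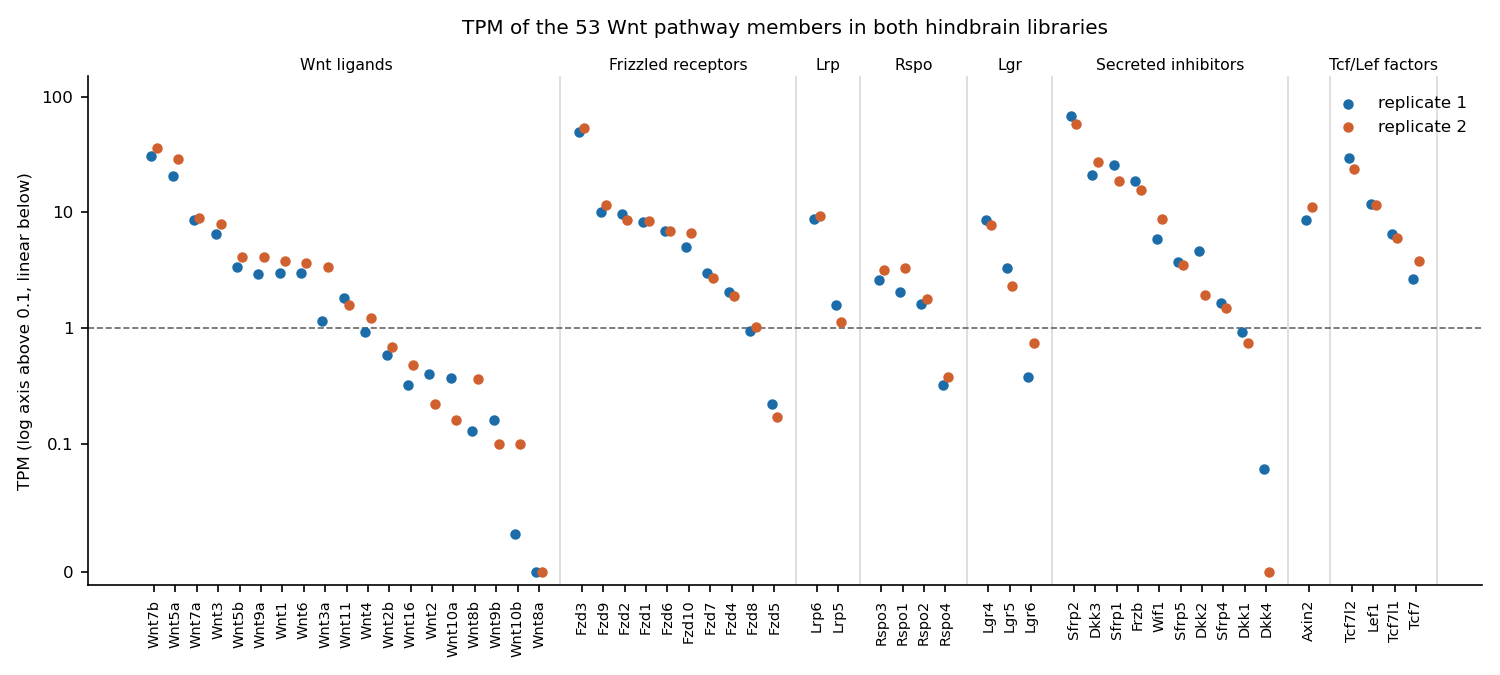
TPM of each of the 53 members in replicate 1 (blue) and replicate 2 (orange), grouped by class and ordered by mean within a class; the axis is logarithmic above 0.1 TPM and linear below, and the dashed line is the detection threshold of 1 TPM. In the ligands Wnt7b and Wnt5a stand above 20 TPM in both libraries, Fzd3 stands alone among the Frizzled receptors, and 9 Wnt ligands lie under the line in at least 1 library.

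Among the ligands, 10 of 19 were detected. Wnt7b (chr15:85535437-85582473 in mm10, minus strand), a ligand known for its role in blood vessel formation in the brain, was the highest, at 30.6 TPM in replicate 1 and 36.0 in replicate 2 (33.3 ± 3.78, n = 2). Wnt5a (chr14:28504750-28527448, plus strand), which acts mostly without beta-catenin, was at 20.7 and 28.8 TPM (24.8 ± 5.76, n = 2). Wnt7b exceeded Wnt5a in each library, by 1.36-fold from the mean log2 ratio, and their libraries did not overlap. Wnt7a, the close relative of Wnt7b, was at 8.52 and 9.01 TPM, so that Wnt7b was 3.79-fold higher. Wnt3, a ligand of the beta-catenin route, followed at 6.47 and 7.94 TPM. These 4 genes carried 78.0% ± 0.73 (SD, n = 2) of the summed TPM of all Wnt ligands, and Wnt7b with Wnt5a 61.1% ± 0.46.

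Below them lay a group whose order could not be resolved. Wnt5b read 3.36 and 4.08 TPM, Wnt9a 2.95 and 4.09, Wnt1 3.0 and 3.76, and Wnt6 2.97 and 3.62. The libraries of these neighbours overlapped in each step, as did those of Wnt6 and Wnt3a. Wnt3a, a ligand of the dorsal midline, was at 1.15 TPM in replicate 1 and 3.36 in replicate 2, the widest ratio between the libraries of any detected ligand. Over the 18 neighbouring pairs in the order of the ligands, 8 were apart in both libraries and 3 also by the deposited credibility intervals.

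Near the threshold, Wnt11 was at 1.83 and 1.57 TPM, Wnt4 at 0.93 and 1.23, and Wnt2b at 0.59 and 0.68. Wnt4, which acts in kidney and gonad formation as well as in the nervous system, passed 1 TPM in replicate 2 only and so was not called detected. The other ligands that were not detected had a mean under 0.5 TPM. Wnt16, Wnt2, Wnt10a, Wnt8b, Wnt9b and Wnt10b had between 1 and 29 counts in a library, so that they were present in the counts at a level this depth barely resolves. Wnt8a had no count in either library, where 3 counts would have been 0.0882 TPM in replicate 1 and 0.0747 in replicate 2.

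In 4 places of the mouse genome the Wnt genes sit as neighbours with no protein-coding gene between them, and in 3 of them the libraries of the partners did not overlap. On chromosome 15, Wnt1 (98789857 to 98793837, plus strand) and Wnt10b (98770712 to 98778150, minus strand) lie 11.7 kb apart. Wnt1 averaged 3.38 TPM and Wnt10b 0.065 TPM, the latter on 1 and 5 counts. On chromosome 11, Wnt3 (103774150 to 103817957, plus strand) lies 24.3 kb from Wnt9b, which averaged 0.130 TPM on 15 and 11 counts, so that Wnt3 was 56.7-fold higher from the mean log2 ratio. Wnt6 and Wnt10a, on the same strand of chromosome 1 and 6.19 kb apart, averaged 3.29 and 0.265 TPM. The members of the last pair, Wnt3a and Wnt9a, 16.2 kb apart on chromosome 11, were both detected, and their libraries overlapped.

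Among the Frizzled receptors, 8 of 10 were detected. Fzd3 (chr14:65192449-65262463, minus strand), a receptor known for axon guidance and planar cell polarity, was at 49.2 TPM in replicate 1 and 53.3 in replicate 2 (51.3 ± 2.87, n = 2) and carried 52.3% ± 0.66 of the class. Fzd9 followed at 10.0 and 11.6 TPM, 4.75-fold below Fzd3, and Fzd2 at 9.62 and 8.53. Fzd1 was at 8.18 and 8.38 TPM, Fzd6 at 6.84 and 6.89, and Fzd10, a receptor of the dorsal neural tube, at 4.99 and 6.60. Fzd7 was at 2.96 and 2.69 TPM. All 9 neighbouring pairs in this order were apart in both libraries, and 6 of them also by the deposited intervals. Near the threshold, Fzd4, the receptor for Norrin in blood vessels, was at 2.03 and 1.89 TPM and Fzd8 at 0.95 and 1.02. Fzd5, known from the eye and gut, was the lowest at 0.22 and 0.17 TPM.

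The summed levels of ligands and of Frizzled receptors were close. The ligands summed to 84.5 TPM in replicate 1 and 106 in replicate 2 (95.02 ± 14.9, n = 2), and the receptors to 95.1 and 101.08 (98.1 ± 4.26, n = 2). On this scale receptors were ahead in replicate 1 and ligands in replicate 2, so the sums overlapped. On counts, which are not divided by length, receptors were ahead in both libraries, with a log2 ratio of summed counts of 0.40 and 0.15. The typical gene differed more: the median of log2(TPM + 1) was higher for the receptors by 1.67 and 1.59 in the 2 libraries (1.63 ± 0.057, n = 2). That scale understates differences between low genes, and when only members averaging at least 1 TPM entered, the difference of medians was 0.92.

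**Figure D2:**
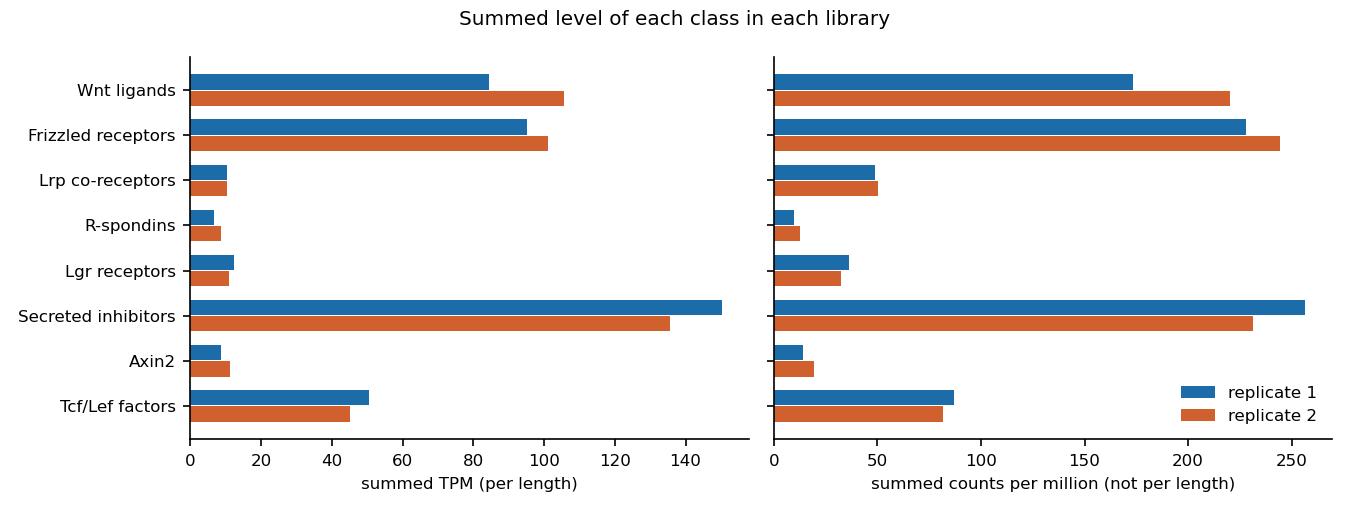
Summed TPM (left) and summed counts scaled to library size (right) of each class in replicate 1 (blue) and replicate 2 (orange). The bars for ligands and Frizzled receptors change order between the libraries on the TPM scale, while the secreted inhibitors have the longest bars on it in both.

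Of the Lrp co-receptors, Lrp6 (chr6:134446476-134566965, minus strand) was at 8.83 and 9.27 TPM and Lrp5 at 1.59 and 1.12. Lrp6 was thus 6.78-fold higher and carried 87.0% ± 3.17 (SD, n = 2) of the TPM of the pair. Neither gene was called different between the libraries, with a log2 ratio of 0.07 for Lrp6 (95% counting interval -0.03 to 0.17) and of -0.23 for Lrp5 (-0.58 to 0.12).

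Of the R-spondins, 3 of 4 were detected, all at low level. Rspo3 was at 2.59 and 3.18 TPM, Rspo1 at 2.04 and 3.33, and Rspo2 at 1.62 and 1.79. Rspo3 and Rspo1 overlapped, so neither led the class. Rspo4 was not detected, at 0.32 and 0.38 TPM. Among their receptors, Lgr4 (chr2:109917647-110014257, plus strand) was at 8.51 and 7.71 TPM. Lgr5, known as a stem cell marker of the gut, was at 3.31 and 2.32 TPM, and Lgr4 was 2.92-fold higher. Lgr6 was at 0.38 and 0.74 TPM and was not detected.

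The secreted inhibitors held the largest share of the members' TPM, 33.8%, beside 22.5% for the ligands and 23.2% for the Frizzled receptors. On counts, not divided by length, their share was 27.8% beside 27.1% for the Frizzled receptors, which were ahead in replicate 2. Sfrp2 (chr3:83766321-83774316, plus strand), a soluble protein with a Frizzled-like domain, was the highest of all 53 members, at 68.2 TPM in replicate 1 and 57.8 in replicate 2 (63.0 ± 7.37, n = 2). Dkk3, a Dkk family member that does not act as a typical Lrp blocker, was at 20.8 and 27.1 TPM. Sfrp1, a close relative of Sfrp2, was at 25.7 and 18.6 TPM, so that Dkk3 and Sfrp1 changed places between the libraries. Frzb, also of the Sfrp family, was at 18.7 and 15.7 TPM. These 4 genes carried 88.3% ± 0.61 of the class, and the Sfrp genes with Frzb alone 75.2%.

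The remaining inhibitors were far lower. Wif1, which binds Wnt ligands directly, was at 5.87 and 8.75 TPM, Sfrp5 at 3.74 and 3.53, and Dkk2 at 4.67 and 1.93. The classical Lrp blocker Dkk1 was at 0.92 and 0.74 TPM and was not detected. Sfrp4 was at 1.64 and 1.48 TPM, and Dkk4 had 2 counts in replicate 1 and none in replicate 2. The Dkk genes other than Dkk3 summed to 5.67 and 2.67 TPM. The inhibitors as a class exceeded the ligands by 0.83 and 0.36 in the log2 ratio of summed TPM (0.60 ± 0.33, n = 2). This order depended on Sfrp2: without it, and with every ligand kept, the mean log2 ratio was -0.24 ± 0.28 (SD, n = 2). Taking the highest gene from the inhibitors alone had to lower the ratio.

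All 4 Tcf/Lef factors were detected and their order was the same in both libraries and by the deposited intervals. Tcf7l2 (chr19:55741820-55933654, plus strand) was at 29.5 TPM in replicate 1 and 23.7 in replicate 2 (26.6 ± 4.12, n = 2) and carried 55.6% ± 4.18 of the class. Lef1 was at 11.7 and 11.5 TPM, 2.27-fold below it. Tcf7l1, which acts mainly as a repressor, was at 6.52 and 5.97 TPM and Tcf7 at 2.63 and 3.79. Axin2 (chr11:108920349-108950783, plus strand), the negative feedback gene used widely as a readout of the beta-catenin route, was at 8.57 and 11.1 TPM (9.86 ± 1.82, n = 2).

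Reads from a gene and an antisense partner cannot be separated where the strand setting is unknown. Exons of 10 members overlap a gene on the opposite strand in GENCODE M21, and 8 of these partners have values in the tables. Those partners were low beside their members: the highest were Gm26771, at 2.67 and 2.01 TPM against Sfrp2, and Gm2670, at 1.02 and 1.69 TPM against Wnt5a. AU022754, which overlaps Wnt7b, was at 0.27 and 0.24 TPM. The partner values come from the same assignment of reads, so they cannot show how many antisense reads were counted for a member.

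The deposited transcript tables showed which forms made up these levels. Of the 38 detected members 16 have a single transcript in the tables, and of the 22 with more, 20 had the same leading transcript in both libraries. Wnt7b-201 made up 88.0% and 88.4% of Wnt7b. Wnt5a was split between Wnt5a-202, at 51.9% and 52.7%, and Wnt5a-201, at 31.6% and 30.7%, which start at different positions and encode 360 and 380 codons. The shares of both ligands differed little between the libraries.

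The Tcf/Lef genes showed more forms. Tcf7l2 has 22 transcripts in the tables, of which Tcf7l2-209, a form of 459 codons, led with 42.5% and 43.2%. Lef1 was shared by Lef1-202 at 54.1% and 44.0%, Lef1-204 at 32.1% and 33.2%, and Lef1-201 at 7.24% and 18.9%, which have the same start and encode 369, 384 and 397 codons. No Lef1 transcript in the tables starts at the internal RefSeq start whose window is printed above. Tcf7 was led by Tcf7-201 (74.6% and 82.0%), and Tcf7l1 by Tcf7l1-201 (88.1% and 93.6%).

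Lgr4 and Wnt11 were the detected members whose leading transcript differed between the libraries. Lgr4-202, of 927 codons, made up 79.6% of Lgr4 in replicate 1 and 21.6% in replicate 2, and Lgr4-201, of 951 codons, 19.3% and 76.4%. The summed level of Lgr4 was close in both libraries, and the 2 forms are 4988 and 5060 bases long. The deposited intervals of Lgr4-202 were disjoint (4.47 to 7.44 TPM, and 0.000148 to 3.64 TPM), while those of Lgr4-201 overlapped. Wif1 also changed in makeup: the protein-coding Wif1-201 was at 3.50 and 8.42 TPM, and the retained-intron form Wif1-202 at 2.37 and 0.33 TPM. The deposited intervals of Wif1-201 were disjoint and those of Wif1-202 overlapped.

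**Figure D3:**
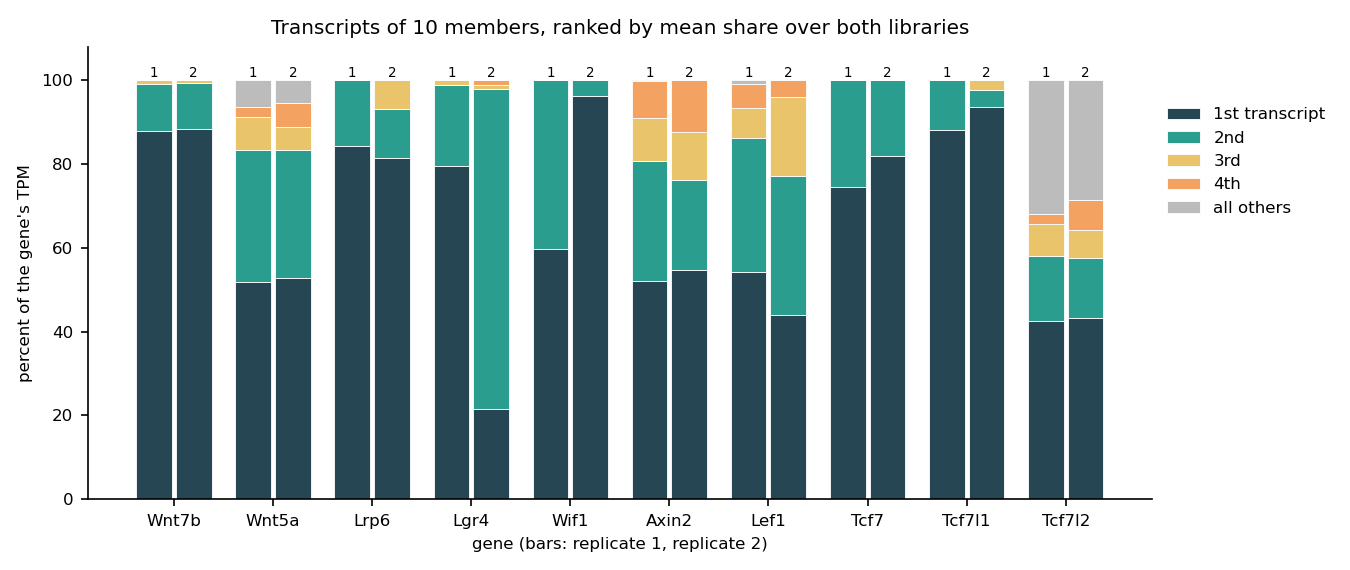
Percent of the gene's TPM in each transcript for 10 members, with replicate 1 and replicate 2 side by side; transcripts are ranked by their mean share and those past the 4th are summed in grey. Lgr4 exchanges its leading form between the libraries and the 2nd form of Wif1, whose deposited TPM intervals overlapped, has a smaller share in replicate 2, while Wnt7b and Wnt5a keep nearly the same shares.

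Between the 2 libraries, 20 of the 50 members with enough counts to test were called different by the exact binomial test. Of all 19687 genes tested, 12.6% were called. The count was 14 higher in replicate 2, where 7.07% of all genes were, and 6 lower, where 5.49% of all genes were. Calls depend on counts, and at 20 to 100 TPM 15.3% of all genes were called and all 7 members in that range were. By the second rule, that the deposited credibility intervals do not overlap, 17 members differed, and 8.07% of all genes did. Of these, 12 members were higher (3.86% of all genes) and 5 lower (4.21% of all genes). Scaling the libraries on spike-in counts moved the median gene by -0.14 in log2, and 12 members were then higher and 9 lower, while over all genes 556 were higher and 7390 lower in place of 1391 and 1081. Of the 20 calls, 18 remained under that scaling.

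**Figure D4:**
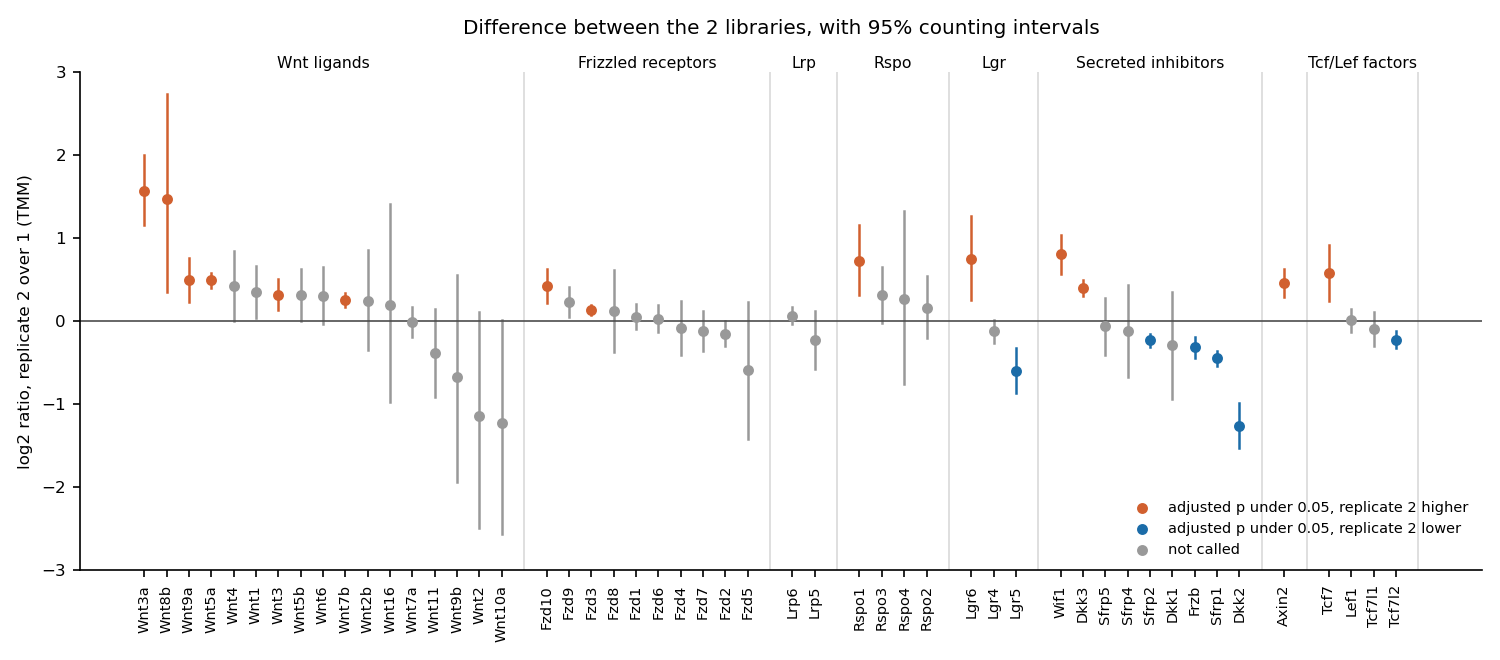
Log2 ratio of replicate 2 over replicate 1 for the 50 members tested, with 95% counting intervals as bars, grouped by class, on TMM-scaled counts; orange and blue mark members called higher and lower in replicate 2. All called Wnt ligands are orange, and the called inhibitors split into 2 orange (Wif1 and Dkk3) and 4 blue (Sfrp2, Frzb, Sfrp1 and Dkk2).

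Of 17 Wnt ligands tested, 6 were higher in replicate 2 and none lower, where 7.07% and 5.49% of all genes were. With spike-in scaling 5 were higher and Wnt10a lower, where 556 of all 19687 genes were higher and 7390 lower. Over the 18 ligands with counts in both libraries, the untested Wnt10b included, the median log2 ratio was 0.31 beside 0.00 over all genes. Wnt3a had 63 counts in replicate 1 and 218 in replicate 2, a log2 ratio of 1.57 (interval 1.16 to 2.00; adjusted p = 2.0e-14, exact binomial test). Wnt8b had 9 and 29 counts, which gave 1.47 with the wide interval of 0.35 to 2.73 (adjusted p = 0.044, exact binomial test). Wnt5a and Wnt9a were both higher with a log2 ratio of 0.49, Wnt7b with 0.25 and Wnt3 with 0.32, the last of which was not called with spike-in scaling. Wnt1, at 141 and 209 counts, had a ratio of 0.35 (0.03 to 0.67) and did not pass the test (adjusted p = 0.14, exact binomial test). Wnt7a was level, at -0.01 (-0.20 to 0.17).

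Among receptors and R-spondins, calls fell on 2 of 10 Frizzled receptors, 1 of 4 R-spondins and 2 of 3 Lgr receptors tested. Neither Lrp co-receptor was called, and 12.6% of all genes were. Fzd10 was higher in replicate 2, with a log2 ratio of 0.42 (0.22 to 0.63), and so was Fzd3 with 0.13, although Fzd3 was at -0.01 and not called with spike-in scaling. Rspo1, at 73 and 141 counts, was higher with 0.73 (0.31 to 1.16). Lgr5 was lower with -0.60 and Lgr6, at 51 and 100 counts, higher with 0.75, and the deposited intervals of both Lgr genes overlapped between the libraries. No Frizzled receptor was called lower with TMM scaling, while Fzd2 and Lgr4 were called lower with spike-in scaling.

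The secreted inhibitors were called in both directions, 2 higher and 4 lower of 9 tested, where 7.07% and 5.49% of all genes were. Dkk2, at 347 and 169 counts, had a log2 ratio of -1.26 (-1.53 to -0.99; adjusted p = 1.5e-19, exact binomial test). Sfrp1 was also lower in replicate 2, with a log2 ratio of -0.45, as were Frzb with -0.32 and Sfrp2 with -0.23. Wif1, at 227 and 462 counts, was higher with 0.81 (0.57 to 1.04) and Dkk3 with 0.40. The Sfrp genes with Frzb summed to 118 TPM in replicate 1 and 97.1 in replicate 2, and its 3 abundant genes were each lower while Wif1 and Dkk3 were higher. Of the nuclear and feedback genes, Axin2 was higher in replicate 2, with 0.46 (0.29 to 0.63), and its deposited intervals overlapped. Its leading transcript, Axin2-201, made up 52.1% and 54.7% of its TPM. That transcript was at 4.46 and 6.09 TPM with disjoint intervals, while the intervals of the other Axin2 transcripts overlapped. Tcf7 was higher with 0.58 and Tcf7l2 lower with -0.22, and Lef1 was level at 0.01 (-0.13 to 0.15).

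Markers of several regions and cell types differed between the same libraries. Beside them, 7.07% of all genes were called higher and 5.49% lower, and at 100 TPM or more 25.4% were called in either direction. Choroid plexus markers summed to 662 TPM in replicate 1 and 1225 in replicate 2, with 7 of 8 higher and none lower, among them Ttr, the transthyretin gene, at 533 and 1022 TPM. Rhombic lip markers summed to 70.1 and 95.02 TPM, with 4 of 5 higher (Pax6 among them, which is also in the progenitor list) and 1 lower, and Atoh1, which marks the cells of that dorsal zone, was at 6.35 and 16.4 TPM. Roof plate markers summed to 39.6 and 66.6 TPM, and of the 5 only Msx1 was called, at 23.3 and 48.4 TPM. In the other direction, meningeal mesenchyme markers summed to 749 and 580 TPM with 5 of 8 lower, cartilage markers to 69.6 and 49.0 TPM with 4 of 5 lower, and floor plate markers to 26.9 and 22.5 TPM with 2 of 5 lower. Surface epithelium markers summed to 14.6 and 22.1 TPM with 2 of 6 higher, and skeletal muscle markers to 52.3 and 64.5 TPM with 3 of 5 higher. Neuron markers summed to 3764 and 3596 TPM with 4 of 7 lower, and neural progenitor markers to 2746 and 3013 TPM with 5 of 7 higher and 2 lower. The median log2 ratio was small in both lists, -0.04 for neuron and 0.15 for progenitor markers. At the border of midbrain and hindbrain 1 of 7 markers was higher and 2 were lower, En1 and Pax5. Of the 9 hindbrain markers, 4 were higher (Hoxb2, Hoxa3, Hoxb3 and Hoxb4) and none lower. None of the markers in these lists was at 0 counts in either library. The part of these cell types in the differences among Wnt genes was not tested.

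**Figure D5:**
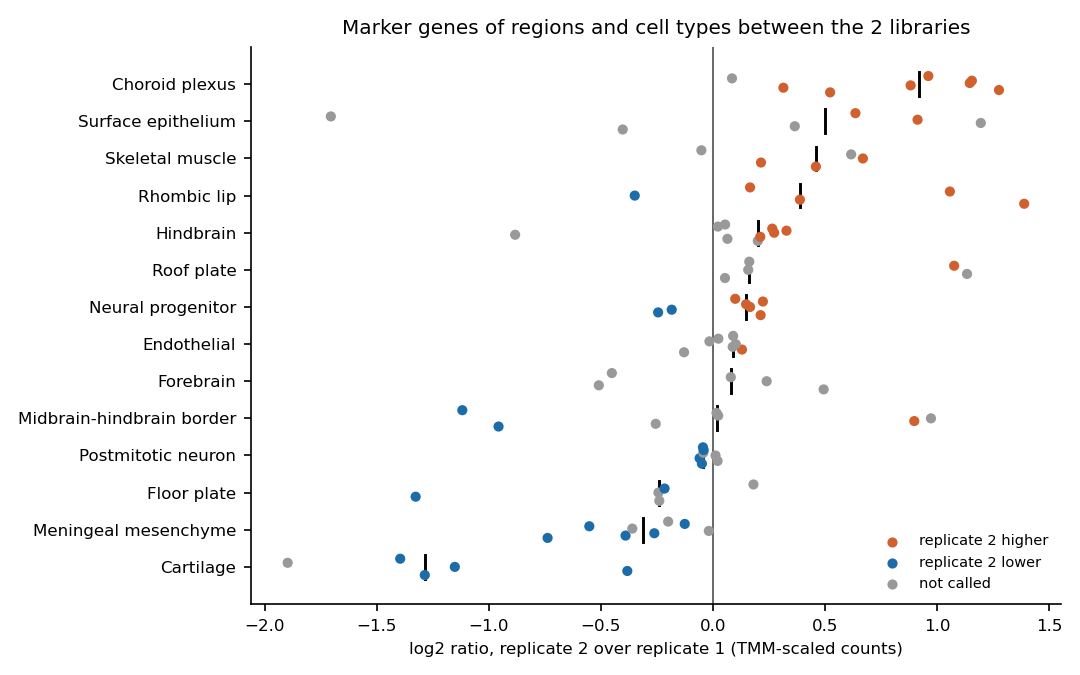
Log2 ratio of replicate 2 over replicate 1 for each marker gene tested (points; orange higher, blue lower, grey not called) by list, with the list median as a black bar. Choroid plexus markers lie to the right, with 7 of 8 called higher, and cartilage and meningeal mesenchyme markers lie to the left.

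The other pathway genes listed here, chosen with earlier results of these data known, were more abundant at the median than the members. The values below therefore hold for this list and not for the rest of the pathway. Of 60 other pathway genes 53 were detected (88.3%, beside 62.2% of protein-coding genes), and their median was 14.3 TPM beside 3.25 for the members. Between the libraries 9 of 59 tested were higher and 5 lower, where 7.07% and 5.49% of all genes were. In ligand secretion, Wls, the carrier that takes Wnt proteins to the cell surface, was at 60.2 and 69.2 TPM, higher in replicate 2 with a log2 ratio of 0.22. Porcn, the enzyme that adds their lipid, was at 40.7 and 35.2 TPM, lower with a ratio of -0.20. Trabd2b, a Wnt-cleaving protease, had the lowest mean of that list, at 0.85 and 0.64 TPM, and overlapped Notum, at 0.81 and 0.70.

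In the cytoplasm, Ctnnb1, which encodes beta-catenin, was at 296 and 291 TPM, and Csnk1a1, a kinase that marks it for destruction, at 221 and 217. Neither was called different. Of 18 genes of this list 17 were detected, and Dact2 was the lowest at 0.64 and 0.48 TPM. In the list 1 gene was higher and 1 lower, or 11.1% called, near the 12.6% of all genes. Among nuclear cofactors, Bcl9, a coactivator of beta-catenin, was at 57.9 and 58.5 TPM and the corepressor Tle1 at 35.1 and 36.8. The lowest was Bcl9l at 4.60 and 4.78 TPM. Of these 8 genes none was higher and 1 lower, or 12.5% called, again near the share of all genes.

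Among membrane and extracellular inhibitors 5 of 9 tested were higher in replicate 2 and none lower, beside 7.07% and 5.49% of all genes. Tpbg, a membrane protein that dampens beta-catenin signalling, was at 15.6 and 20.9 TPM and Draxin at 14.0 and 17.0. Sostdc1, a secreted Lrp-binding inhibitor, was at 9.29 and 17.5 TPM on 317 and 704 counts, a log2 ratio of 0.93. Sost, which encodes sclerostin, had 1 and 16 counts, and Cer1, which had the lowest mean TPM of the list, had 4 and 2. Among feedback and target genes, Ccnd1 was at 40.4 and 43.3 TPM, Myc at 39.0 and 36.5, and Sp5, the lowest, at 2.78 and 3.34. Nkd1, a feedback inhibitor named here after its values were seen, was the only one of these 5 that was called, at 23.4 and 31.6 TPM and a log2 ratio of 0.45.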

How the data were processed

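The authors deposited a gene and a transcript table per library for 2 libraries of 1 group. The deposited expected counts are estimated, non-integer reads per gene; TPM and FPKM were computed by the authors, per the file headers, as were a posterior mean TPM, credibility intervals of TPM (level not stated) and the percent of a gene's TPM in each transcript, deposited by the authors. Reads were assigned on mm10 and GENCODE M4, according to the submitters' notes beside the files. Which aligner, counting program and strand setting were used is not given in the sources used here.

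Names and positions came from GENCODE M21 on the same build (42462 of 43346 Ensembl genes matched); promoter windows came from RefSeq. Totals were 33080194 and 38756411 estimated counts. Of these, 97.7% and 97.5% fell on Ensembl genes; spike-in rows (765441 and 983679 counts) and rows with only a number as identifier stayed out of the tests. Counts were rounded. TMM sizes came from edgeR 4.0.16 in R 4.3.3, with a common biological coefficient of variation of 6.14%. The exact binomial test ran in SciPy 1.17.1 where a gene had 10 counts or more over both libraries, and p-values were adjusted by Benjamini-Hochberg and called at 0.05. The quasi-likelihood test of edgeR was not used, since there is 1 group. Counting intervals are exact (Clopper-Pearson) at 95% and, like the floor of 3 counts, cover counting error only, since the reads have no molecular identifiers and are not independent molecules.

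The test was also run on simulated Poisson counts, which hold counting error only, with 19676 genes tested in the comparison of replicate 2 with replicate 1. It called 98.0% of 100 genes changed 2-fold, 68.0% of 100 changed 1.2-fold, and 9 of 19476 unchanged genes. The changed genes were taken from those with 100 counts or more over both libraries. These rates therefore do not cover genes with fewer counts or spread beyond counting error. Full values are given for the 3 highest members of each class, members called different and members within 0.5 to 2 TPM; of other pathway lists, the 2 highest and the lowest gene, and called genes with an absolute log2 ratio of 0.5 or more. The members were fixed by gene symbol alone, while the other gene lists and the tests were chosen with earlier results of these data known. Alternatives were other thresholds, pseudocounts, units, scalings (including size factors of DESeq2 1.42.0), count filters and each library alone.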

Additional observations from a re-analysis of the deposited data

How the results depend on the processing

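The count of detected members ran from 31 (TPM 2) to 42 (TPM 0.5). With each library alone it was 38 to 40, with 10 to 11 Wnt ligands. The difference of medians between Frizzled receptors and Wnt ligands kept its direction at every setting tried: 1.63 as reported, 2.14 with a pseudocount of 0.1, 1.88 with 0.5, 1.42 on FPKM, 1.55 on the posterior mean TPM, 1.99 on counts not divided by length and 0.92 when only members averaging at least 1 TPM entered. It was 1.59 to 1.67 with each library alone. The log2 ratio of inhibitors over ligands turned from 0.60 to -0.24 without Sfrp2, with every ligand kept. It was 0.36 to 0.83 with each library alone.

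Called members numbered 20 with DESeq2 size factors and with total counts, 21 with spike-in counts, 19 with no filter or a minimum of 50 counts and 17 by the deposited intervals. Spike-in scaling also raised the calls over all 19687 genes, to 556 higher and 7390 lower in place of 1391 and 1081. The count of 21 members therefore does not stand out from all genes as the main count does. Wnt8b was the call lost in both filter settings, with an adjusted p of 0.057 by the exact binomial test without a filter and too few counts for the stricter one. With spike-in scaling the Fzd3 ratio was -0.0073 and the Wnt3 ratio was 0.17 (adjusted p = 0.14, exact binomial test). On log2(TPM + 1), Wnt3a was at 1.02, Wnt8b at 0.27, Dkk2 at -0.95 and Wif1 at 0.51; log2 of TPM without a pseudocount, added after the data were seen, kept the direction of all 20. By mean share over both libraries, the leading transcript held 50% or more in 19 of 22 genes, and in 19 to 21 with each library alone. The first count includes Lgr4 at a mean of 50.6%, although its leading transcript differed between the libraries. No comparison of the libraries can leave out a library, and no paired analysis was possible because there is 1 group.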

Other observations

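For the branch of the pathway that orients cells without beta-catenin, the RNA levels of listed planar polarity core genes were examined. All 7 were detected, beside 62.2% of protein-coding genes, and none was called different between the libraries by the exact binomial test with Benjamini-Hochberg adjustment. Before adjustment, Celsr1 (p = 0.018) and Celsr3 (p = 0.046) were under 0.05 by that exact test, and the deposited intervals of all 7 overlapped between the libraries. Celsr2, an atypical cadherin, was at 48.0 and 41.6 TPM, Vangl2, a membrane protein needed for neural tube closure, at 42.1 and 39.9, and Celsr1, the lowest, at 1.06 and 1.27. Ptk7, a co-receptor of this branch, was at 31.9 and 32.4 TPM. Fzd3 and Wnt5a, the members most often tied to it, stood at 51.3 ± 2.87 and 24.8 ± 5.76 TPM (SD, n = 2). Unlike the core genes, both were called higher in replicate 2, with log2 ratios of 0.13 and 0.49. Fzd3 was not called with spike-in scaling.

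The Norrin branch, which acts in blood vessels through Fzd4 and Lrp5, had uneven parts. Tspan12, the tetraspanin that assists Fzd4, was at 52.0 and 55.6 TPM and Ndp, which encodes Norrin, at 6.18 and 5.97, while Fzd4 was at 2.03 and 1.89 and Lrp5 at 1.59 and 1.12. Endothelial markers summed to 240 and 248 TPM. The lowest mean among the other ligands and membrane co-receptors was that of Ror1, at 1.62 and 1.54 TPM, which overlapped Adgra2, at 2.48 and 1.51. Of the 8 genes in that list, 1 was called higher in replicate 2 and 2 lower, or 37.5% called, beside 12.6% of all genes. The gene called higher was Tspan12, whose deposited intervals overlapped between the libraries.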
